A study of Mus musculus with 87 samples.

Results

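Tet1, Tet2, Tet3 and Tdg encode the 3 TET dioxygenases and thymine DNA glycosylase, and their transcripts were followed by name through 10 count tables that hold 25277 gene symbols each. The 4 genes were found in every table, so their levels could be read in all 87 mouse RNA sequencing libraries, with mutant groups set against their own controls. In haploid cells, labelled AG-haESC (androgenetic haploid embryonic stem cells, which carry a genome of paternal origin only), the Dnmt genotypes were TKO (n = 3), STOP (n = 2) and WT (n = 3). In semi-cloned embryos, made with such a cell in place of a sperm, the genotypes were pIR (n = 4) and pWT (n = 4) at the 2C stage, pIR (n = 4) and pWT (n = 3) in morulae, and pIR (n = 4) and pWT (n = 4) in blastocysts. Fetal organs (stage E18.5) came in 2 sets, called batch 1 and batch 2 here after their titles and count tables. No title or column name gives a batch. Each organ of batch 1 stands in a count table of its own, so whether these organs were prepared or sequenced together is not known. In batch 1, brain, kidney, lung, heart and liver were taken from pTKO and pWT fetuses (2 libraries per organ and genotype). In batch 2 the heart and the liver were taken from pIR and pWT fetuses (4 libraries per organ and genotype). Newborn organs (stage P1) were kidney, lung, heart and liver, with 2 pIR and 3 pWT libraries per organ. What STOP, pIR and the prefix p stand for, which Dnmt genes the TKO lacks, the strain of the mice and whether a genotype comes from 1 clone are not given in the sources used here. No label says whether replicate libraries stem from different animals or cultures, and p values therefore measure the spread between these libraries only.

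TET proteins are dioxygenases that use 2-oxoglutarate, oxygen and iron to oxidise methylcytosine in DNA to hydroxymethylcytosine and further to formylcytosine and carboxylcytosine. TDG is a glycosylase that cuts out formylcytosine and carboxylcytosine, as well as thymine mispaired with guanine, and base excision repair then puts an unmodified cytosine in their place. In the mouse, Tet3 is the TET gene known for its stored transcript in the oocyte and for acting on the paternal genome of the zygote, Tet1 and Tet2 are known for their high expression in embryonic stem cells, and loss of Tdg is lethal to the embryo. The substrate of these enzymes is laid down by the DNA methyltransferases, the genes named in the genotypes of this study.

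In the GENCODE annotation of mm10, Tet1 (ENSMUSG00000047146.17) lies on the minus strand at chr10:62804570-62908996 and its exons cover 15457 bases. Tet2 (ENSMUSG00000040943.12) lies on the minus strand at chr3:133463679-133545139 with 16870 exonic bases, of which 43 are shared with an antisense gene that is not among the counted symbols. Tet3 (ENSMUSG00000034832.15) lies on the minus strand at chr6:83362373-83459084 with 16695 exonic bases. Tdg (ENSMUSG00000034674.18) lies on the plus strand at chr10:82629828-82650799 with 5374 exonic bases, and 367 of them overlap Glt8d2 on the other strand. Because CpG sites are what the methyltransferases methylate, the 250 bases before the RefSeq start of each of the 4 genes (GRCm38.p6, all 4 found in the promoter table) are shown 5′ to 3′, with every CG dinucleotide in capitals. The windows are chr10:62887325-62887574 on the minus strand for Tet1, chr3:133544391-133544640 on the minus strand for Tet2, chr6:83441679-83441928 on the minus strand for Tet3 and chr10:82629588-82629837 on the plus strand for Tdg. The Tet1, Tet2 and Tet3 windows lie inside the GENCODE spans above, downstream of their outermost starts, and the Tdg window reaches just past the GENCODE start. Each window therefore describes the RefSeq start used here and not every start of the gene.
Tet1: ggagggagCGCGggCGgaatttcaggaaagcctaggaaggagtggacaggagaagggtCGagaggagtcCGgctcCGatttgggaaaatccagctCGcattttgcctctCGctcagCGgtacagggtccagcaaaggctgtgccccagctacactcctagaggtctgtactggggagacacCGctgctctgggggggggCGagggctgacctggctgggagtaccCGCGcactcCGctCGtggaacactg
Tet2: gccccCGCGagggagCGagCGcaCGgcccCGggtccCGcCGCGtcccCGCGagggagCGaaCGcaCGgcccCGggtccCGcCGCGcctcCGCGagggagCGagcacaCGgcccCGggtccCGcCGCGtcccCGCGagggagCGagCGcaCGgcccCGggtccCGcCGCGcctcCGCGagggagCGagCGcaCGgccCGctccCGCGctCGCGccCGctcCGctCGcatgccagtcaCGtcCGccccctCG
Tet3: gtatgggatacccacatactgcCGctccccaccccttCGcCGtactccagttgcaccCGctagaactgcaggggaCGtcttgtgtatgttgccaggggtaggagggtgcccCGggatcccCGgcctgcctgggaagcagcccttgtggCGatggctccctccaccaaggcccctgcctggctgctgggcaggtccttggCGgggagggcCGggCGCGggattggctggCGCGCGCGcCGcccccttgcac
Tdg: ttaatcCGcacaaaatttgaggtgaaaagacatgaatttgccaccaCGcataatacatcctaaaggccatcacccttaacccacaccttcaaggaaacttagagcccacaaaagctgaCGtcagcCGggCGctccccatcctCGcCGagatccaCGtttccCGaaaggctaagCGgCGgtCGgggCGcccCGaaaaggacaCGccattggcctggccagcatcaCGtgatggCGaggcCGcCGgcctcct
The motif searched was CG, which reads the same on both strands. The Tet2 window held 51 of them at 83.6% GC, and 0.067% of the 32851 promoter windows of this length held as many. The Tet1 window held 15 (62.8% GC), the Tet3 window 17 (69.6% GC) and the Tdg window 19 (56.8% GC), numbers reached by 27.3%, 23.5% and 19.7% of the windows, against a median of 6 over all windows. These counts describe the sequence only, since no methylation level was measured in these libraries.

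Total assigned counts ran from 6136789 to 37396693 per library, with 16777664 to 24451566 in haploid cells, 6136789 to 24005031 in 2C embryos, 7717160 to 16978845 in morulae, 9657865 to 14896979 in blastocysts, 10714628 to 37396693 and 16305144 to 23754158 in batch 1 and batch 2 of E18.5 and 13904567 to 21015410 at P1. Levels are given as CPM, the counts of a gene scaled to these totals. Each labelled tissue carried its markers: the summed CPM of the marker list in its lowest library was 6250 for brain neurons, 33300 for heart muscle, 1510 for kidney, 39800 for hepatocytes and 15400 for lung epithelium, against at most 217, 1220, 133, 2250 and 131 in other samples. The methyltransferase transcripts were low in the TKO libraries of the haploid cells, while what STOP should change is not known here. Dnmt1, the maintenance enzyme, had 68.8 to 74.0 CPM in TKO, 572 to 601 CPM in STOP and 418 to 425 CPM in WT. Dnmt3b, a de novo enzyme, had 21.8 to 26.9 CPM in TKO, 122 to 128 CPM in STOP and 126 to 149 CPM in WT. Reads of Tdg cannot be told apart from those of Tdg-ps2, a transcribed pseudogene at chr10:42052558-42055453: both symbols had the same count in 23 of the 87 libraries and differed by at most 36 counts in the others. Every Tdg value below is therefore a value for Tdg and its copy together.

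Tet1 was the most abundant member in WT haploid cells, and its levels were lower in blastocysts, and lower again in morulae and in the fetal and newborn organs. Its 3 WT libraries had 721, 689 and 731 CPM (714 ± 22.0, SD), pWT blastocysts had 178, 218, 215 and 204 CPM (204 ± 18.3, SD, n = 4), and these groups did not overlap each other or the next group in the order. The E18.5 hearts of batch 2 (87.1 ± 3.17 CPM, n = 4), the E18.5 brain (80.1 ± 13.5, n = 2) and the morulae (78.8 ± 7.37, n = 3) followed and overlapped. P1 kidney stood apart from both its neighbours at 40.1 ± 2.62 CPM (n = 3). From P1 heart (26.3 ± 3.94 CPM, n = 3) downwards, neighbouring groups overlapped as far as the livers, which were lowest with 4.99 ± 0.815 CPM in E18.5 batch 2 (n = 4), 2.48 ± 1.25 at P1 (n = 3) and 1.97 ± 2.27 in E18.5 batch 1 (n = 2).

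Tet2 took the same places at the top. Its WT haploid libraries had 419, 364 and 371 CPM, pWT blastocysts 338, 314, 270 and 272 CPM and pWT morulae 204, 178 and 159 CPM, 3 groups without overlap. P1 heart came next with 91.5 ± 24.3 CPM (SD, n = 3) and overlapped the E18.5 batch 2 heart at 73.3 ± 1.59 CPM (n = 4). At the low end stood the batch 1 heart with 12.2 ± 0.884 CPM (n = 2), the 2C embryos with 7.3 ± 4.55 CPM (n = 4) and the batch 1 liver with 6.56 ± 6.56 CPM (n = 2), whose neighbours overlapped.

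Tet3 ran the other way between the organs and the haploid cells or blastocysts. It was highest in P1 lung (211 ± 6.36 CPM, SD, n = 3), P1 kidney (207 ± 11.9, n = 3), E18.5 brain (194 ± 13.4, n = 2), E18.5 kidney (184 ± 23.4, n = 2) and E18.5 lung (167 ± 3.83, n = 2), with each group overlapping the next. Hearts lay between 92.9 and 103 CPM on average and livers between 50.9 and 64.5 CPM, the lowest organ means for Tet3 as for Tet1. Haploid cells had 17.9 ± 2.94 CPM (n = 3), blastocysts 8.28 ± 3.92 CPM (n = 4) and morulae 4.62 ± 2.83 CPM (n = 3), and the first of these groups did not overlap the other 2. The 2C embryos, with 91.6, 65.9, 85.3 and 66.8 CPM, sat among the hearts and the P1 liver.

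Tdg spanned a smaller range outside early embryos, with 103, 105 and 99.6 CPM in WT haploid cells at the top and P1 liver (17.1 ± 0.756 CPM, SD, n = 3) at the bottom. The 2 kidney groups, 72.9 ± 4.81 CPM at E18.5 (n = 2) and 66.5 ± 5.21 CPM at P1 (n = 3), overlapped each other and lay apart from the groups on either side. In pWT morulae Tdg had 2.43, 0 and 2.49 CPM, and in pWT 2C embryos 1.29, 0, 0 and 0.368 CPM. All 4 pIR 2C libraries were at 0 counts, which allows up to 0.405, 0.397, 0.489 and 0.404 CPM, taking 3 counts as the limit that a count of 0 allows in a library, for counting error only. Which libraries were made with the low-input kit is not stated in the labels read here, so levels in cells, embryos and organs cannot be told apart from a difference between kits.

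**Figure D1:**
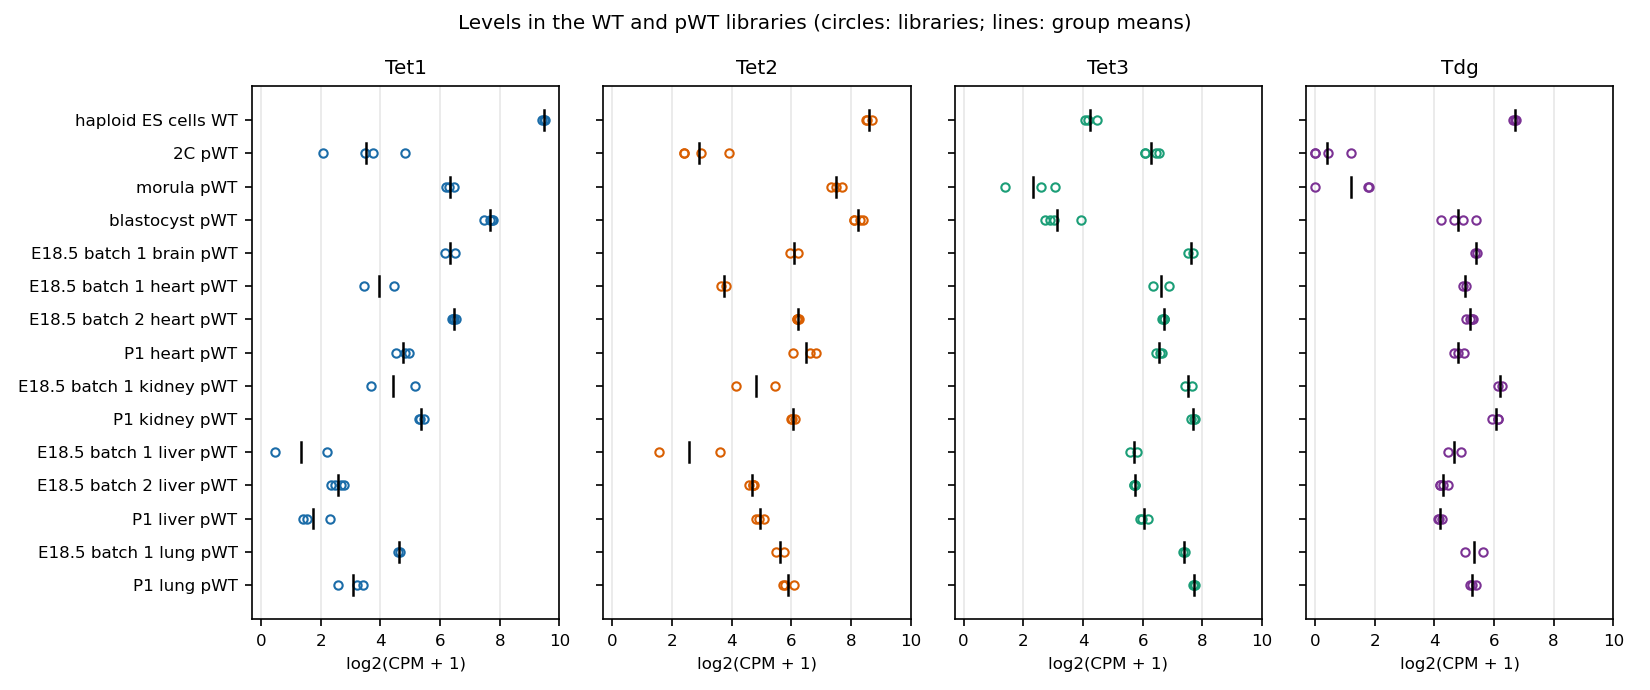
Level of Tet1, Tet2, Tet3 and Tdg on a log scale, log2(CPM + 1), in the WT and pWT libraries, by stage and tissue (15 groups), with a circle for each library and a line at the mean of each group on that scale. Tet1 and Tet2 are highest in haploid cells (714 and 384 CPM on average) and blastocysts, Tet3 is highest in P1 lung (211 CPM on average), and Tdg is at or near 0 in 2C embryos and morulae.

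Divided by exonic length, the 3 TET transcripts can be compared within a group, and the leading gene changed with stage. In WT haploid cells Tet1 made up 66.0 ± 1.44% of the TET level per kilobase (SD, n = 3), Tet2 32.5 ± 1.57% and Tet3 1.54 ± 0.309%. Tet3 made up 79.0 ± 12.2% in pWT 2C embryos (n = 4), Tet2 led with 66.4 ± 4.55% in pWT morulae (n = 3), and Tet2 stood at 56.4 ± 4.64% beside Tet1 at 42.1 ± 4.13% in pWT blastocysts (n = 4). Tet3 led in every pWT organ, from 38.3 ± 0.467% in the E18.5 heart of batch 2 (n = 4) to 85.9 ± 14.2% in the E18.5 liver of batch 1 (n = 2). The exception depends on the length used: in P1 heart, Tet3 at 44.3 ± 4.98% and Tet2 at 42.2 ± 5.06% (n = 3) change places when the longest transcript replaces the exon union, which gives Tet2 48.5% and Tet3 42.5%. The summed TET level per kilobase was 70.0 ± 2.51 CPM in WT haploid cells (n = 3), and 5.93 ± 0.945, 16.1 ± 1.19 and 31.4 ± 1.49 CPM in pWT 2C embryos, morulae and blastocysts (n = 4, 3 and 4).

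**Figure D2:**
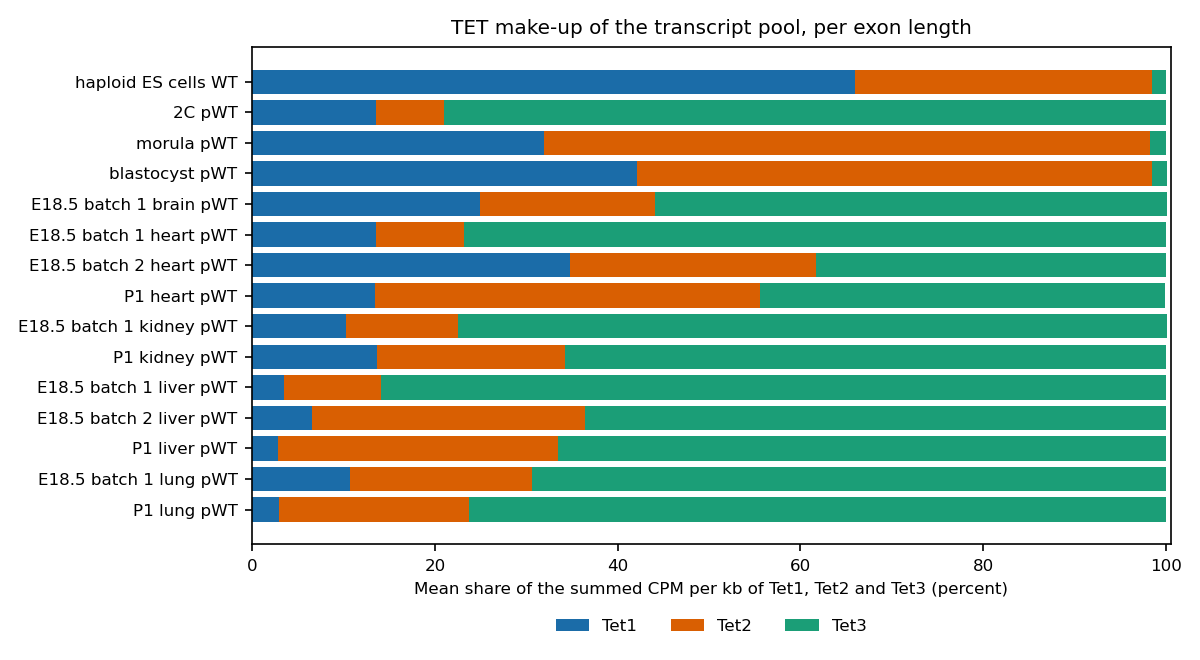
Mean share (percent) of Tet1, Tet2 and Tet3 in the summed TET level per kilobase of exon, 1 bar for each of the 15 WT and pWT groups. Tet1 leads in haploid cells with 66.0%, Tet3 in 2C embryos and organs, and Tet2 in morulae with 66.4% and in blastocysts with 56.4%.

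Between the 2C stage and the morula in pWT embryos, Tet2 rose and Tet3 fell. The counts were fitted in edgeR (quasi-likelihood), and a gene is called here when its p value, adjusted over all genes tested in that comparison, is under 0.05. For Tet2 the morulae had 204, 178 and 159 CPM against 4.22, 6.87, 4.25 and 13.9 CPM in 2C embryos, a log2 fold change of 4.03 ± 0.60 (SE, adjusted p = 0.00166). For Tet3 the morulae had 1.62, 7.26 and 4.97 CPM against 91.6, 65.9, 85.3 and 66.8 CPM in 2C embryos, a log2 fold change of -4.65 ± 0.70 (adjusted p = 0.00181). No morula reached the range of the 2C embryos for either gene. Tet1 had 72.6, 86.9 and 77.0 CPM in morulae against 12.5, 3.24, 10.1 and 27.2 CPM in 2C embryos, with a log2 fold change of 1.98 ± 0.74 that was not called (adjusted p = 0.0697), although it was with DESeq2 (adjusted p = 0.0147), with a length trend (0.0186) or a GC trend (0.0319) removed, with all pWT embryo stages in the fit (0.0142) and without pWT 2C replicate 4 (0.03). So 2 of 4 members were called where 32.6% of all genes were, and both calls held with each library left out.

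Between the morula and the blastocyst in pWT embryos, Tet1 and Tdg rose. Blastocysts had 178, 218, 215 and 204 CPM of Tet1 against 72.6, 86.9 and 77.0 CPM in morulae, a log2 fold change of 1.10 ± 0.20 (SE, adjusted p = 0.00228), and the stages did not overlap. Tdg had 30.1, 17.5, 41.1 and 24.1 CPM in blastocysts against 2.43, 0 and 2.49 CPM in morulae, a log2 fold change of 3.79 ± 0.87 (adjusted p = 0.00895). Tet2 (0.46 ± 0.17, adjusted p = 0.0737) and Tet3 (0.59 ± 0.73, adjusted p = 0.605) were not called by edgeR, so 2 of 4 members passed beside 25.2% of all genes. DESeq2 called 3 members, Tet2 among them (0.45, adjusted p = 0.0373), while Tet2 was -0.01 with a trend on transcript length removed (adjusted p = 0.967). With a trend on transcript length removed from each library, Tet1 kept its sign but not its call (0.62, adjusted p = 0.0528).

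The organs of pWT mice were compared at each age by setting each tissue against the mean of the others of its set. For batch 1 of E18.5, a difference between tissues cannot be told apart from one between preparations, if the organs were prepared separately. At P1, Tet1 was higher in kidney, with 43.0, 38.2 and 39.0 CPM, and in heart, with 29.8, 22.1 and 27.1 CPM, than in the mean of the other tissues (log2 differences 1.82 ± 0.19 and 1.6 ± 0.19, SE, adjusted p = 7.53e-07 and 3.52e-06). It was lower in liver, with 1.63, 3.92 and 1.9 CPM (-2.38 ± 0.26, adjusted p = 7.97e-07), and in lung, with 5.03, 8.34 and 9.59 CPM (-1.04 ± 0.22, adjusted p = 0.000632). The kidney and heart libraries all lay above every liver and lung library. Tet2 was higher in heart (0.99 ± 0.11, adjusted p = 2.59e-06) and lower in liver (-0.60 ± 0.13, adjusted p = 0.000589).

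Tet3 at P1 was higher in lung (0.78 ± 0.067, SE, adjusted p = 9.02e-08) and kidney (0.42 ± 0.068, adjusted p = 7.28e-05) and lower in heart (-0.53 ± 0.072, adjusted p = 1.49e-05) and liver (-0.68 ± 0.074, adjusted p = 8.77e-07). Tdg was higher in kidney, with 69.9, 60.5 and 69.2 CPM (0.84 ± 0.096, adjusted p = 2.64e-06). It was lower in liver, with 16.5, 18.0 and 16.8 CPM (-0.63 ± 0.11, adjusted p = 9.19e-05), and in heart (-0.28 ± 0.10, adjusted p = 0.0254), the last of which was not called without heart replicate 1 (0.199) or 3 (0.0943), liver replicate 1 (0.0873), 2 (0.13) or 3 (0.106) or kidney replicate 1 (0.0524). In all, 4 of 4 members were called in heart, 3 in kidney, 4 in liver and 2 in lung, where 66.6%, 67.1%, 75.9% and 70.6% of all genes were called. With the length trend removed, Tet2 (-0.03, adjusted p = 0.807) and Tet3 (-0.12, adjusted p = 0.236) were not called in liver, the Tdg call in heart was lost (-0.18, 0.154), and Tet2 was called as lower in kidney (-0.44, 0.00145) and lung (-0.45, 0.00111). The Tdg call in heart was also lost with no filter (0.124) or with the GC trend removed (0.146), and Tet2 in kidney was also called with RLE scaling (0.0481), with the GC trend removed (0.00538) and without heart replicate 2 (0.00851).

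At E18.5 in batch 1 of pWT, the brain had more Tet1, Tet2 and Tet3 and the liver less Tet1 and Tet3 than the mean of the other 4 tissues. Mean Tet1 and Tet2 were 80.1 and 67.3 CPM in brain and 15.3 and 12.2 CPM in the batch 1 heart. The pWT hearts of batch 2 had 87.1 and 73.3 CPM, so the brain was not above them, while Tet3 was higher in brain (194 against 103 CPM). In the batch 1 hearts, genes with transcripts of at least 8 kb were low against those of 2 to 4 kb (median log2 shifts -0.93 and -0.87). The part of this was not tested. In brain, Tet1 had 89.7 and 70.6 CPM (log2 difference 2.49 ± 0.57, SE, adjusted p = 0.00579), Tet2 74.2 and 60.3 CPM (1.53 ± 0.49, adjusted p = 0.0257) and Tet3 203 and 184 CPM (0.45 ± 0.15, adjusted p = 0.0304). In liver, Tet1 had 3.58 and 0.368 CPM (-3.00 ± 0.83, adjusted p = 0.016) and Tet3 47.1 and 54.7 CPM (-0.72 ± 0.17, adjusted p = 0.00681). In kidney, Tdg had 76.3 and 69.5 CPM (0.60 ± 0.19, adjusted p = 0.0479). That is 3 members called in brain, 2 in liver and 1 in kidney, beside 67.5%, 57.2% and 29.1% of all genes, and 0 in heart and in lung beside 46.3% and 44.6%, where 0 members had an unadjusted p under 0.05 and DESeq2 called 0. The sign of Tet3 turned with the length trend removed, to -1.03 in brain (adjusted p = 0.0396) and 0.43 in liver (0.319), and the Tdg call in kidney was lost with DESeq2 (adjusted p = 0.0644). With that trend removed, brain Tet2 was 0.18 and not called (adjusted p = 0.665) and brain Tet1 was 1.15 (0.0469). In brain the Tet2 call was also lost without brain replicate 1 (0.113) or 2 (0.0673) or heart replicate 2 (0.0528), and the Tet3 call without brain replicate 1 (0.158) or 2 (0.0926) or lung replicate 1 (0.0503) or 2 (0.0565). The Tdg call in kidney was lost without any 1 of 7 libraries, with adjusted p = 0.0709, 0.0776, 0.0856, 0.0934, 0.104, 0.184 and 0.198 without heart 1, lung 1, heart 2, brain 2, brain 1, kidney 2 and kidney 1. In liver, Tet2 (11.2 and 1.92 CPM, -1.47 ± 0.61, adjusted p = 0.073) was called with DESeq2 (-1.49, 0.0149), with the GC trend removed (-1.37, 0.0493) and with both genotypes in the fit (-1.49, 0.0264). Tet2 was also called in liver (-3.17, adjusted p = 0.0026) and lung (1.44, 0.00575) without liver replicate 1, and in heart (-1.14, 0.0252) without liver replicate 2.

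Mutant genotypes were set against their controls in 16 comparisons, which gave 63 tests of the 4 members, Tdg being too low to test at the 2C stage. Of these, 8 were called, 4 higher and 4 lower. In the comparisons that held these calls, the shares of all genes called were 23.1% in STOP haploid cells and 10.6% in pIR blastocysts. They were 39.2% in pIR P1 liver, 26.8% in pTKO heart and 1.75% in pTKO brain. Where 0 members were called, the shares were 14.6% in TKO haploid cells and 10.6%, 2.6% and 2.32% in pIR P1 kidney, lung and heart. In the remaining mutant comparisons they were at most 0.136%. A share over all comparisons together was not computed, so the 8 calls have no single share beside them. Tet2 accounted for 4 of the calls, lower in STOP haploid cells, pIR blastocysts and pIR P1 liver and higher in pTKO heart. Tdg was called in 2 comparisons, higher in pTKO brain and pIR P1 liver, Tet1 in 1 comparison, higher in pTKO heart, and Tet3 in 1, lower in pTKO brain. TKO and STOP were compared with the same WT libraries, so their values are not independent of each other. How many of all genes separate between the same groups was not counted. A lack of overlap, here and above, therefore only describes the libraries shown.

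**Figure D3:**
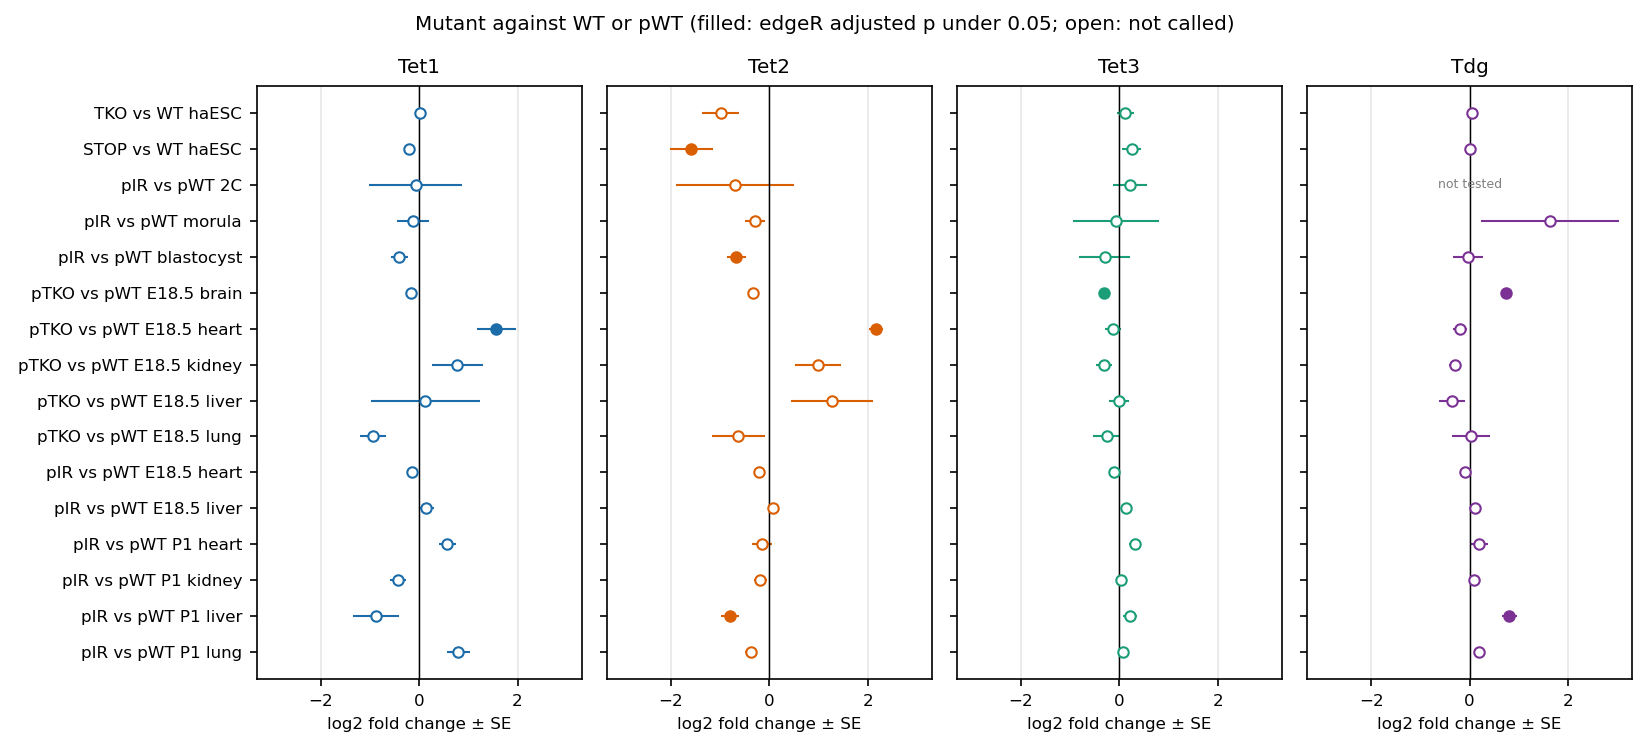
Log2 fold change (mutant over WT or pWT, edgeR fit) of Tet1, Tet2, Tet3 and Tdg in the 16 comparisons, with bars of 1 standard error, filled points for the 8 calls and open points for values not called. Filled points of Tet2 lie at -1.58, -0.67 and -0.79 on the low side and at 2.17 on the high side.

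In haploid cells Tet2 was the member that moved. It had 117, 132 and 337 CPM in TKO, 134 and 142 CPM in STOP and 419, 364 and 371 CPM in WT, so every mutant library lay below every WT library, with TKO replicate 3 close to them. STOP against WT gave a log2 fold change of -1.58 ± 0.44 (SE, adjusted p = 0.0347). TKO against WT gave -0.99 ± 0.37 and was not called (adjusted p = 0.104). Without TKO replicate 3 the TKO value was -1.71 (adjusted p = 2.36e-07), and the direct comparison of STOP with TKO gave -0.59 ± 0.42 (adjusted p = 0.902). The STOP call was lost without any 1 of the STOP or WT libraries, with adjusted p = 0.151 and 0.195 without STOP replicate 1 and 2 and 0.0948, 0.0749 and 0.0941 without WT replicate 1, 2 and 3.

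The other members were not called in haploid cells. Tet1 had 690, 719 and 812 CPM in TKO, 675 and 661 CPM in STOP and 721, 689 and 731 CPM in WT, with log2 fold changes of 0.01 ± 0.10 (SE, adjusted p = 0.95) for TKO and -0.20 ± 0.11 (adjusted p = 0.214) for STOP. With only STOP and WT in the fit, or without TKO replicate 3, that STOP value was called (adjusted p = 0.00741 and 0.0245). Tdg had 108, 113 and 108 CPM in TKO, 109 and 110 CPM in STOP and 103, 105 and 99.6 CPM in WT (0.05 ± 0.073 for TKO and 0.00 ± 0.082 for STOP, adjusted p = 0.653 and 0.996). Tet3 ranged from 15.5 to 24.4 CPM in TKO, 20.7 to 25 CPM in STOP and 15.7 to 21.2 CPM in WT. So 0 of 4 members were called in TKO (1 with an unadjusted p under 0.05, 0 with DESeq2) beside 14.6% of all genes, 1 in STOP beside 23.1%, and 0 between STOP and TKO (0 unadjusted, 0 with DESeq2) beside 0.0401%.

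Other measures moved with Tet2 across these 8 libraries. The median of 383 X-linked genes against autosomal genes, relative to the mean of the libraries, was -0.48, -0.23 and 0.27 on the log2 scale in TKO, -0.28 and -0.21 in STOP and 0.32, 0.34 and 0.32 in WT, so TKO replicate 3 again lay near WT. The summed level of 6 embryonic stem cell markers, with 0 of them at 0, was 2800 to 3430 CPM in TKO, 2690 to 2930 CPM in STOP and 3570 to 3850 CPM in WT. Their part in the Tet2 result was not tested. Because these are bulk samples, fewer cells of a type and less RNA per cell cannot be told apart.

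In pIR embryos Tet2 lay below pWT in morulae and blastocysts and was called in blastocysts. Blastocysts had 134, 151, 137 and 236 CPM of Tet2 in pIR against 338, 314, 270 and 272 CPM in pWT, a log2 fold change of -0.67 ± 0.19 (SE, adjusted p = 0.036). Every pIR blastocyst library lay below every pWT library, and pIR replicate 4 lay nearest to them. Tet1 had 140, 117, 113 and 176 CPM in pIR against 178, 218, 215 and 204 CPM in pWT, again without overlap, but the log2 fold change of -0.40 ± 0.17 was not called (adjusted p = 0.14). Tet3 (2.71 to 11.7 CPM in pIR against 5.57 to 14.1 CPM in pWT) and Tdg (20.1 to 29.6 CPM in pIR against 17.5 to 41.1 CPM in pWT) overlapped. So 1 of 4 members was called beside 10.6% of all genes. The summed TET level per kilobase was 18.9 ± 4.55 CPM in pIR and 31.4 ± 1.49 CPM in pWT blastocysts (SD, n = 4 each).

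The Tet2 call in blastocysts was lost with the length trend removed (-0.37, adjusted p = 0.263), and without pIR replicate 1 (0.0607), 2 (0.106) or 3 (0.106) or pWT replicate 1 (0.0931) or 2 (0.0936), while without pIR replicate 4 it was -0.87 (0.0137). The median of genes with transcripts of at least 8 kb against those of 2 to 4 kb, relative to the mean of the libraries, was 0.03, -0.19, -0.40 and -0.04 on the log2 scale in pIR and 0.18, 0.12, 0.07 and 0.25 in pWT. The 4 primitive endoderm markers summed to 178 to 347 CPM in pIR and 298 to 465 CPM in pWT, and the 6 trophectoderm markers to 3690 to 5530 CPM in pIR and 2850 to 5330 CPM in pWT, with 0 of them at 0. The part of these measures in the Tet2 result was not tested.

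At the earlier stages 0 members were called. In morulae, Tet2 had 123, 116, 156 and 135 CPM in pIR against 204, 178 and 159 CPM in pWT, without overlap and with a log2 fold change of -0.29 ± 0.20 (SE, adjusted p = 0.60). Tet1 ranged from 36.9 to 94.0 CPM in pIR and from 72.6 to 86.9 CPM in pWT morulae. Tdg ranged from 0.269 to 11.3 CPM in pIR and from 0 to 2.49 CPM in pWT morulae (1.63 ± 1.4, adjusted p = 0.692). In 2C embryos Tet3, the leading TET transcript of that stage, had 115, 88.8, 89.0 and 84.1 CPM in pIR against 91.6, 65.9, 85.3 and 66.8 CPM in pWT (0.22 ± 0.34, adjusted p = 1). The 2 groups overlapped. edgeR called 0 of 3 tested members at the 2C stage and 0 of 4 in morulae, where 0 members had an unadjusted p under 0.05 and DESeq2 made 0 calls in each, beside 0% and 0.136% of all genes. The difference between the pIR effect in blastocysts and in morulae was -0.34 ± 0.27 for Tet2 (adjusted p = 0.802) and was called for 0 members (0 unadjusted) beside 0% of all genes.

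**Figure D4:**
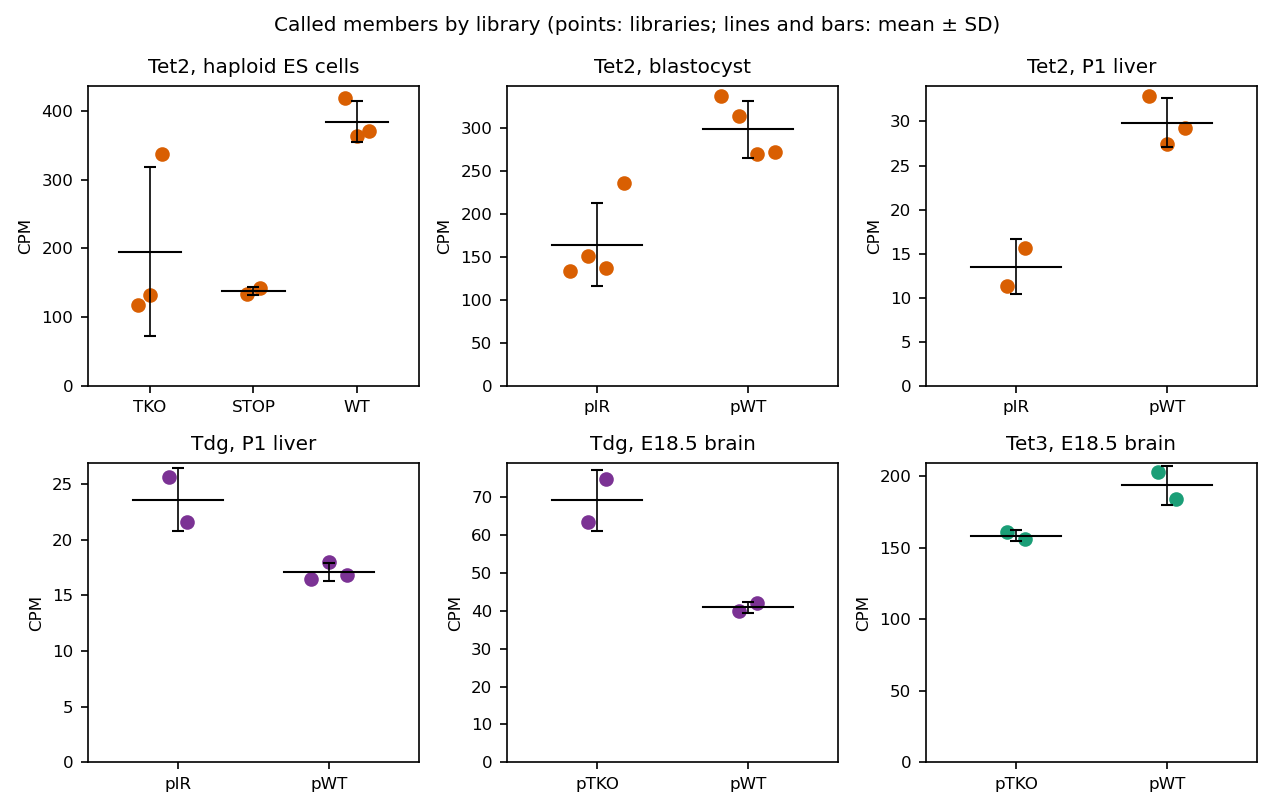
CPM by library (points) with the group mean and SD (lines and bars) for Tet2 in haploid cells, blastocysts and P1 liver, Tdg in P1 liver and E18.5 brain, and Tet3 in E18.5 brain, mutant groups left of WT or pWT. In each panel the mutant libraries lie on 1 side of the WT or pWT libraries, and TKO replicate 3 (337 CPM of Tet2) and pIR blastocyst replicate 4 (236 CPM of Tet2) lie nearest to them.

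In the pTKO brain at E18.5, Tdg was higher and Tet3 lower than in pWT. Tdg had 63.4 and 74.8 CPM in pTKO against 39.9 and 41.9 CPM in pWT, a log2 fold change of 0.74 ± 0.094 (SE, adjusted p = 0.00204) with rank 13 of 15531 genes by p. Tet3 had 161 and 156 CPM in pTKO against 203 and 184 CPM in pWT (-0.31 ± 0.066, adjusted p = 0.0371). Neither gene overlapped between genotypes. Tet2 had 49.6 and 58.4 CPM in pTKO against 74.2 and 60.3 CPM in pWT (-0.32 ± 0.10, adjusted p = 0.132), and it was called with no filter on low counts (-0.33, adjusted p = 0.0109), which makes 3 of 4 members, and in the fits without pTKO replicate 2 (0.00266) or pWT replicate 2 (0.0455). In brain 2 of 4 members were called beside 1.75% of all genes.

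Without each brain library in turn the adjusted p of Tdg was at most 0.0029, in fits where 1 genotype is a lone library assumed to vary like the other 2. DESeq2 gave it no adjusted p, and with all 5 tissues of the batch in the fit it was 0.75 with adjusted p = 1. The Tet3 call was lost in that fit (-0.29, adjusted p = 1), with the length trend removed (-0.15, adjusted p = 0.291) and without pWT replicate 1 (-0.24, adjusted p = 0.169). The 5 cycling-cell markers summed to 206 to 230 CPM in pTKO and 264 to 303 CPM in pWT brain, and the 5 erythroid markers to 8.96 to 13.2 CPM in pTKO, below every pWT library (at most 20.8 CPM), with 0 of either list at 0, and their part was not tested. Neuron markers overlapped, at 6550 to 6640 CPM in pTKO and 6250 to 6680 CPM in pWT. Dnmt1 had 142 to 145 CPM in pTKO and 245 to 247 CPM in pWT brain, and Dnmt3a, a de novo methyltransferase, 151 to 155 CPM in pTKO and 236 to 251 CPM in pWT.

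In the pTKO heart of the same batch, Tet1 and Tet2 were higher than in pWT. Tet2 had 58.2 and 58.8 CPM in pTKO against 12.9 and 11.6 CPM in pWT, a log2 fold change of 2.17 ± 0.14 (SE, adjusted p = 0.0165) with rank 10 of 15075 genes by p. Tet1 had 48.1 and 48.7 CPM in pTKO against 20.7 and 9.83 CPM in pWT (1.57 ± 0.39, adjusted p = 0.0453). The genotypes did not overlap for either gene. Tet3 (91.4 and 97.7 CPM in pTKO against 80.9 and 117 CPM in pWT) and Tdg (31.4 and 26.8 CPM in pTKO against 32.2 and 30.4 CPM in pWT) overlapped. In heart 2 of 4 members were called, beside 26.8% of all genes. Per kilobase, Tet3 made up 46.2 ± 0.978% of the TET level in pTKO hearts and 76.9 ± 10.2% in pWT hearts (SD, n = 2 each).

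The hearts of this batch were set beside those of batch 2. The E18.5 hearts of batch 2 had 68.1, 64.9, 62.3 and 58.0 CPM of Tet2 in pIR and 71.6, 72.6, 75.3 and 73.7 CPM in pWT, levels above those of the pWT hearts of batch 1, and only pIR replicate 4 was not above the pTKO hearts of batch 1. Tet1 had 64.4 to 90.6 CPM in pIR and 83.4 to 91.0 CPM in pWT hearts of batch 2, above both the pTKO and the pWT hearts of batch 1. Over the hearts of both batches, the median of genes with long transcripts against those of middle length was 0.00 and 0.03 on the log2 scale in pTKO of batch 1, -0.93 and -0.87 in pWT of batch 1, 0.19 to 0.25 in pIR and 0.21 to 0.25 in pWT of batch 2. With the length trend removed, Tet2 was 1.33 (adjusted p = 0.0236), Tet1 was 0.73 and not called (0.2), and Tet3 was -0.98 and called (0.0321). Both calls were lost without pTKO replicate 1 (Tet2 0.102, Tet1 0.148) or 2 (Tet2 0.114, Tet1 0.154), and the Tet1 value ran from 1.07 without pWT replicate 2 to 2.26 without pWT replicate 1. The Tet1 call was also lost with a GC trend removed (0.0959) and with all tissues in the fit (0.112). The cycling-cell markers summed to 642 to 688 CPM in pTKO and 334 to 440 CPM in pWT, with 0 of the 5 at 0, and their part was not tested.

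**Figure D5:**
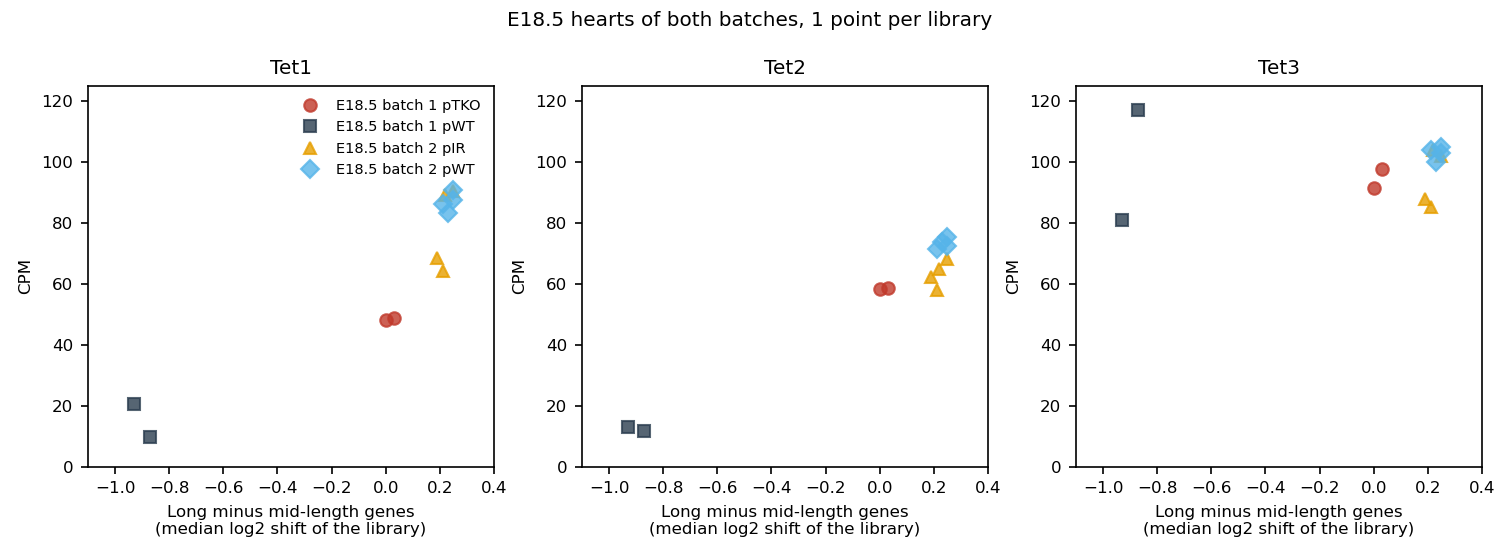
Tet1, Tet2 and Tet3 CPM (vertical axis) of each E18.5 heart library of both batches, against the median log2 shift of genes with transcripts of at least 8 kb relative to those of 2 to 4 kb (horizontal axis). The 2 pWT hearts of batch 1 lie alone at -0.93 and -0.87 with the lowest Tet1 and Tet2 levels, while the pTKO hearts of batch 1 lie at 0.00 and 0.03.

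In the other pTKO organs 0 members were called by edgeR, and the sizes of the Tet1 and Tet2 changes in kidney and liver moved with single libraries. In kidney, Tet1 had 39.0 and 42.3 CPM in pTKO against 34.4 and 11.7 CPM in pWT (log2 fold change 0.78 ± 0.52, SE, adjusted p = 0.455), and Tet2 had 58.1 and 63.5 CPM in pTKO against 42.7 and 16.8 CPM in pWT (0.99 ± 0.46, adjusted p = 0.37). Without pWT replicate 1, which leaves replicate 2 as the only pWT kidney, the log2 fold changes were 1.73 and 1.80, and without pWT replicate 2 they were 0.20 and 0.47. In liver, Tet2 had 15.3 and 19.0 CPM in pTKO against 11.2 and 1.92 CPM in pWT (1.28 ± 0.83, adjusted p = 0.621), and with replicate 2 as the only pWT liver the log2 fold changes were 2.47 for Tet1, 2.99 for Tet2 and -0.60 for Tdg. The low library in both organs was pWT replicate 2, whose long transcripts were also low against middle ones, at -0.18 in kidney and -0.48 in liver, and the part of this was not tested. In lung, Tet1 had 9.49 and 14.3 CPM in pTKO against 24.2 and 23.3 CPM in pWT (-0.94 ± 0.27, adjusted p = 0.804), with pTKO replicate 1 at -0.62 on the same length measure.

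With replicate 1 as the only pTKO lung, the log2 fold changes were -1.26 for Tet1, -1.68 for Tet2 and -0.66 for Tet3, and with replicate 2 as the only pTKO lung Tet1 was -0.67. All these values of kidney, liver and lung pass the threshold except those of kidney without pWT replicate 2, but the lone library is assumed to vary like the 2 libraries of the other genotype, which alone give the spread. The members called were 0 of 4 in kidney and 0 in liver (0 unadjusted and 0 with DESeq2 in each) and 0 in lung (1 unadjusted, 0 with DESeq2), beside 0%, 0% and 0% of all genes. The pTKO effect was not called as different across the 5 tissues for any of the 4 members (adjusted p = 0.345 for Tet1, 0.223 for Tet2, 0.957 for Tet3 and 0.241 for Tdg, 2 of them with an unadjusted p under 0.05), where 0.0106% of all genes were called. Without liver pWT replicate 1, Tet1 (0.0375) and Tet2 (0.0204) were called as different across tissues.

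In pIR fetuses at E18.5 the members were close to pWT. In heart, Tet2 had 68.1, 64.9, 62.3 and 58.0 CPM in pIR against 71.6, 72.6, 75.3 and 73.7 CPM in pWT, a log2 fold change of -0.20 ± 0.056 (SE, unadjusted p = 0.00416, adjusted p = 0.789). All 4 pIR hearts lay below all 4 pWT hearts. In liver, Tet3 had 56, 58.0, 60.7 and 53.4 CPM in pIR against 52.7, 51.1, 53.1 and 51.6 CPM in pWT (0.13 ± 0.053, adjusted p = 0.88), again without overlap. edgeR called 0 of 4 members in heart and 0 of 4 in liver (1 with an unadjusted p under 0.05 and 0 by DESeq2 in each), beside 0.0137% and 0% of all genes. The difference of the pIR effect, liver minus heart, was 0.27 ± 0.079 for Tet2 (adjusted p = 0.903) and was called for 0 members (2 unadjusted), beside 0.00622% of all genes.

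In pIR newborn liver Tet2 fell and Tdg rose. Tet2 had 11.3 and 15.7 CPM in pIR against 32.9, 27.4 and 29.3 CPM in pWT, a log2 fold change of -0.79 ± 0.18 (SE, adjusted p = 0.00431). Tdg had 25.6 and 21.6 CPM in pIR against 16.5, 18.0 and 16.8 CPM in pWT (0.81 ± 0.15, adjusted p = 0.0011). The genotypes did not overlap for either gene, and both calls held under each of the alternatives run, with adjusted p at most 0.0338 for Tet2 and 0.00786 for Tdg with a library left out. Tet1 had 0.896 and 1.23 CPM in pIR against 1.63, 3.92 and 1.9 CPM in pWT (-0.87 ± 0.47, adjusted p = 0.164). Tet3 had 64.6 and 53.7 CPM in pIR against 71.7, 62.2 and 59.6 CPM in pWT. The 2 called members stood beside 39.2% of all genes.

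The pIR livers differed from pWT in their makeup of transcripts as well. The 6 hepatocyte markers summed to 96900 to 110000 CPM in pIR and 39800 to 49500 CPM in pWT, the 5 erythroid markers to 2580 to 4390 CPM in pIR and 6630 to 8320 CPM in pWT, the 5 cycling-cell markers to 327 to 396 CPM in pIR and 880 to 1020 CPM in pWT and the 6 macrophage and neutrophil markers to 676 to 772 CPM in pIR and 953 to 1290 CPM in pWT. None of these markers was at 0, and their part in the Tet2 and Tdg results was not tested. The fit scales libraries to each other, so its folds differ from plain CPM ratios here: the log2 ratio of mean CPM was -1.14 for Tet2, 0.47 for Tdg, -1.23 for Tet1 and -0.13 for Tet3, while the fitted value of Tet3 was 0.22 ± 0.14 (SE, adjusted p = 0.228). Per kilobase, Tet2 made up 18.3 ± 5.32% of the TET level in pIR (n = 2) and 30.6 ± 1.49% in pWT livers (SD, n = 3).

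In the other newborn organs 0 members were called by edgeR, and Tet1 came nearest. In P1 lung Tet1 had 13.6 and 13.7 CPM in pIR against 5.03, 8.34 and 9.59 CPM in pWT (log2 fold change 0.80 ± 0.23, SE, adjusted p = 0.101), which DESeq2 called (adjusted p = 0.0304). In P1 heart it had 35.8 and 47.5 CPM in pIR against 29.8, 22.1 and 27.1 CPM in pWT (0.57 ± 0.17, adjusted p = 0.0988). In P1 kidney it had 23.7 and 33.8 CPM in pIR against 43.0, 38.2 and 39.0 CPM in pWT (-0.43 ± 0.17, adjusted p = 0.143), and -0.72 without pIR replicate 2 (adjusted p = 0.0368). The pIR libraries lay above all pWT libraries in lung and heart and below them in kidney. With so few libraries this is a description only, since the share of all genes that separate was not counted. Tet2 in lung had 45.3 and 45.6 CPM in pIR against 51.7, 54.4 and 67.4 CPM in pWT (-0.38 ± 0.11, adjusted p = 0.108). Tet3 in heart had 116 and 131 CPM in pIR against 93.7, 86.1 and 98.8 CPM in pWT (0.32 ± 0.12, adjusted p = 0.161), and it was called with all P1 tissues in the fit (0.31, adjusted p = 0.037).

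Members called numbered 0 of 4 in P1 heart (2 unadjusted, 0 with DESeq2), 0 in kidney (1 unadjusted, 0 with DESeq2) and 0 in lung (2 unadjusted, 1 with DESeq2), beside 2.32%, 10.6% and 2.6% of all genes. The 5 fibroblast markers summed to 6400 to 9650 CPM in pIR and 2630 to 3730 CPM in pWT hearts, to 4210 to 4350 CPM in pIR and 2600 to 2960 CPM in pWT kidneys and to 5910 to 7750 CPM in pIR and 3190 to 4210 CPM in pWT lungs, with 0 of them at 0, and their part was not tested. Whether the pIR effect differed between the 4 newborn organs was tested directly with an F test of the difference. It was called for Tet1 (F = 6.74, adjusted p = 0.019) and Tdg (F = 6.5, adjusted p = 0.0212) and not for Tet2 (0.185) or Tet3 (0.352), 2 of 4 members beside 25.3% of all genes. The Tet1 call held without each library in turn (adjusted p at most 0.0456), while the Tdg call was lost without liver pIR replicate 1 (0.129) or liver pWT replicate 1 (0.0593) or 3 (0.0533).

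The other genes of the pathway were described through 5 lists: DNA methyltransferases with Uhrf1, base excision repair, TET partners, recruiters and readers, the enzymes that supply or remove 2-oxoglutarate and its competing metabolites, and other dioxygenases of nucleic acids. In pIR P1 liver 39.2% of all genes were called in either direction, a share to set beside each list. Of the 2-oxoglutarate list, 9 of 16 tested genes rose and 1 fell, with a median log2 fold change of 0.51 beside -0.03 for all genes. Glud1, which makes 2-oxoglutarate from glutamate, rose by 1.86 ± 0.15 on the log2 scale (SE, adjusted p = 4.85e-06), and Idh1, the cytosolic isocitrate dehydrogenase, by 1.87 ± 0.22 (adjusted p = 4.93e-05). These enzymes are also abundant in hepatocytes. Hepatocyte markers were higher in the same libraries, and their part in these values was not tested. In base excision repair 3 of 17 rose and 5 fell (median -0.29), among them the glycosylases Neil3 (-1.58 ± 0.16, adjusted p = 1.98e-05) and Mbd4 (-1.05 ± 0.17, adjusted p = 0.000408). Of the partners 3 of 15 rose and 6 fell (median -0.26), of the methyltransferases 1 of 4 fell and of the other dioxygenases 2 of 5 rose, namely Fto and Alkbh5, both RNA demethylases.

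In pIR blastocysts 10.6% of all genes were called in either direction. There, 5 of 15 genes of the 2-oxoglutarate list rose and 0 fell (median 0.26 beside -0.07 for all genes), with Idh3a (0.86 ± 0.17, SE, adjusted p = 0.0112) and Sdhd (0.90 ± 0.18, adjusted p = 0.0127) as examples. Of the repair list 2 of 15 rose, Apex1, the endonuclease that cuts at the abasic site left by glycosylases (1.04 ± 0.21, adjusted p = 0.0125), and Parp2 (0.73 ± 0.17, adjusted p = 0.02). Of the partners 2 of 18 rose and 1 fell, the last being Hcfc1 (-0.93 ± 0.21, adjusted p = 0.018), a chromatin cofactor that is cut by the Tet partner Ogt. In these blastocysts the median log2 shift of long against middle transcripts was -0.40 to 0.03 in pIR and 0.07 to 0.25 in pWT. Its part in the values of the list genes was not tested. In TKO haploid cells 3 of 5 methyltransferase genes fell. TKO is a Dnmt genotype, so this fall may be the mutation itself and is not a separate result about the list. Of the partners 3 of 18 rose and 2 fell in TKO, beside 14.6% of all genes called. Dppa3, known for shielding the maternal genome of the zygote from Tet3, rose by 2.79 ± 0.27 in TKO (adjusted p = 0.00108) and by 3.09 ± 0.29 in STOP (adjusted p = 0.00141). Lin28a, which recruits Tet1 in mouse embryonic stem cells, fell by 0.92 ± 0.10 in TKO (adjusted p = 0.00178) and fell by 1.14 ± 0.12 in STOP (adjusted p = 0.00176).

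In pTKO heart, Ogt, the transferase bound by TET proteins, rose by 1.75 ± 0.17 (SE, adjusted p = 0.0165). Of the 2-oxoglutarate list 5 of 15 genes fell and 0 rose, and 3 of 17 repair genes rose and 1 fell, beside 26.8% of all genes called. Relative to the mean of the batch 1 hearts, long against middle transcripts had a median log2 shift of 0.43 in each pTKO library. In pWT it was -0.41 and -0.39. X-linked against autosomal genes had 0.19 in each pTKO library and -0.1 and -0.26 in pWT. The part of these shifts in the Ogt and list values was not tested. In pTKO brain 2 of 14 partners fell, Qser1, which guards methylation-free regions together with TET1 in human stem cells (-0.47 ± 0.071, adjusted p = 0.00835), and Hcfc1 (-0.26 ± 0.060, adjusted p = 0.0475). Of all genes, 1.75% were called in pTKO brain. In P1 kidney 4 of 16 genes of the 2-oxoglutarate list rose and 2 of 17 repair genes fell, beside 10.6% of all genes called. In P1 lung 2 of 57 genes of all lists were called, beside 2.6% of all genes. Over all 5 lists edgeR called 0 of 51 at the 2C stage (1 unadjusted, 0 with DESeq2), 0 of 59 in morulae (11 and 2), 0 of 56 in pTKO kidney (16 and 4), 0 of 57 in pTKO liver (3 and 0) and 0 of 56 in pTKO lung (3 and 0). In pIR it called 0 of 58 in E18.5 heart (4 and 0), 0 of 58 in E18.5 liver (1 and 0) and 0 of 58 in P1 heart (10 and 4). Of all genes, 0%, 0.136%, 0%, 0% and 0% were called at the 2C stage, in morulae and in pTKO kidney, liver and lung. In pIR the shares were 0.0137%, 0% and 2.32% in E18.5 heart, E18.5 liver and P1 heart.

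Across the 15 WT and pWT groups, the pattern of each member was compared with that of 16079 genes by the correlation of mean log2(CPM + 1), as a description of group means that share depth, kit and batch. Tet1 was most like Gtf3c3 (Pearson r = 0.952), Cwc27 (0.938) and Hdac2 (0.937), and Tet2 most like Rab1a (0.957), Eif4a2 (0.945) and Mtrex (0.942). Tet3 was most like Fyn (0.966), Dusp22 (0.964) and Ccng2 (0.961), and Tdg, after its copy Tdg-ps2 (1.0), most like Pak2 (0.98) and Qsox2 (0.971). Among the members, Tet1 and Tet2 followed each other (r = 0.837), and Tet3 had weaker, negative values with both (-0.396 with Tet1 and -0.461 with Tet2). These values span cells, embryos and organs together and were not tested.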

How the data were processed

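RNA was extracted with TRIzol and sequenced as 150 bp paired reads on an Illumina NovaSeq instrument, per the labels' protocols, with a poly(A) kit or a Smart-Seq2 low-input kit, and no label says which library used which. The deposited values are raw counts per gene symbol on mm10; the submitters' processing notes name Trim Galore 0.6.6, HISAT2 2.1.0, featureCounts 1.6.4 and DESeq2. How strand and reads with several matches were counted is not stated in the labels or notes. Columns were matched to samples by name, 11 of them by elimination among the pWT embryos, and 0 columns of sample values were left unused.

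Counts were tested with edgeR 4.0.16 (R 4.3.3, quasi-likelihood F test, TMM scaling, filterByExpr with a minimum count of 10), p values were adjusted by Benjamini-Hochberg over all genes tested, and the threshold was 0.05. The haploid genotypes shared 1 fit, other mutant comparisons used their own stage or tissue, and each tissue was set against the mean of the others in 1 fit. SEs were derived from the fold change and its F value (log2 fold change over the root of F). The fits were tested on simulated data first. CPM uses library totals. Length values came from GENCODE for 96.6% of symbols. Alternatives were DESeq2 1.42.0 (Wald test), RLE scaling, no filter, other sets of samples in the fit, transcript length or GC trends removed from each library over 25 bins, the replicate number as a block and each library left out.

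The text names the 4 members in every comparison, at most 2 called genes with the smallest p per list and comparison, and the 3 genes most like each member among those with a group mean of at least 5 CPM, with predicted genes left out. The members, lists and tests were chosen with earlier results of these data known. No label ties replicate numbers to an animal or batch, and no comparison with 3 or more pairs had every correlation of same-numbered deviations over 0.1, so samples were treated as unpaired; with 2 numbers, this cannot be decided. The lowest chi-square per degree of freedom between replicates was 3.54, so no 2 libraries were counted as 1. That value was from the pWT brain pair, and the pTKO brain pair had 3.96. Such values show more spread than counting error only, and cannot tell whether replicates stem from different animals. Intervals and limits for counts of 0 cover counting error only.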

Additional observations from a re-analysis of the deposited data

Results flagged for a closer look

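In 2C embryos, pIR replicate 1 had 115 CPM of Tet3, apart from the other 3 pIR libraries at 84.1 to 89.0 CPM. In blastocysts, pIR replicate 4 had 236 CPM of Tet2, apart from the other 3 pIR libraries at 134 to 151 CPM. These were the libraries standing apart among 36 sets of a member and a group, of which chance marks about 1 in 20.

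The pIR effect differed between the 4 newborn organs for Tet1 by the F test of the difference (adjusted p = 0.019, edgeR), with log2 fold changes of 0.57 in heart, -0.43 in kidney, -0.87 in liver and 0.80 in lung. It also differed for Tdg (adjusted p = 0.0212, edgeR), with 0.20 in heart, 0.10 in kidney, 0.81 in liver and 0.20 in lung, and without liver pIR replicate 1 the Tdg value was 0.129. Without liver pWT replicate 1 it was 0.0593 and without liver pWT replicate 3 it was 0.0533.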

How the results depend on the processing

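With 1 library left out, 760 of 851 values kept their direction and side of the threshold, 35 lost a call, 19 gained one and 37 turned sign. Under the other alternatives, 728 of 789 did so, 19 lost a call, 22 gained one and 20 turned sign. The cause of these changes was not tested.

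With the length trend removed, signs turned for Tet1 in TKO (-0.05), pIR morulae (0.16) and pTKO liver (-0.11), Tet2 between blastocyst and morula (-0.01), Tet3 in pIR morulae (0.19) and pTKO lung (0.11) and in E18.5 brain (-1.03), heart (0.48), liver (0.43) and lung (-0.15) against other tissues, and Tdg in pIR blastocysts (0.11). With the GC trend removed they turned for Tdg in pIR blastocysts (0.02), Tet1 in pTKO liver (-0.14) and Tet3 in pTKO heart (0.11), pTKO liver (0.19) and P1 kidney (-0.05), and with RLE scaling for Tet3 in pTKO liver (0.01).

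Members called numbered 0 in blastocysts and 1 each in brain pTKO, blastocyst against morula and E18.5 liver against other tissues with the length trend removed, and 2 in P1 liver against other tissues. With the GC trend removed they were 1 in pTKO heart, 1 in E18.5 heart and 1 in E18.5 lung against other tissues. E18.5 kidney against other tissues had 0 with DESeq2, RLE scaling, the length trend or the GC trend. DESeq2 called 1 in pTKO brain and 1 in P1 lung, and 3 each in morula against 2C, blastocyst against morula and E18.5 liver against other tissues, where edgeR called 2. Single members that gained or lost a call without moving these counts by over 1.5 times stand beside their comparisons. With all tissues of an age in the fit, 0 were called in pTKO brain, 1 in pTKO heart and 1 in P1 heart, and with STOP and WT alone 2 were called in STOP.

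The replicate block called 1 member in TKO, 1 in pTKO heart and 1 in P1 lung, and turned the sign of Tet1 in morulae (0.03), Tdg in blastocysts (0.03) and Tet1 in E18.5 kidney against other tissues (-0.05). The labels tie the numbers to no animal or batch. The correlation of same-numbered deviations ran from 0.01 to 0.2 over the 3 pairs of TKO and WT, and from -0.1 to 0.56 between the E18.5 batch 1 pWT tissues, which have 2 numbers. With the block, Tet2 was called in E18.5 liver against other tissues (-1.67, adjusted p = 0.029, edgeR). The correlation was -0.34, -0.16 and -0.21 in pTKO heart, kidney and liver, and a crossed pairing, chosen after seeing the data, called 2, 0 and 0 members there. The block with the length trend was not run, because no numbers pair.

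With 1 library left out, the log2 values that turned ranged for Tet1 from -0.11 to 0.08 in TKO, -0.49 to 0.58 in 2C, -0.32 to 0.08 in morulae, -0.34 to 0.01 in pTKO brain, -0.73 to 2.47 in pTKO liver, and -0.58 to 0.69 and -0.83 to 0.63 in E18.5 heart and kidney against other tissues. For Tet2 they ranged from -0.86 to 0.14 between STOP and TKO, -0.32 to 0.01 in P1 heart and -0.86 to 0.38 in E18.5 kidney against other tissues. For Tet3 they ranged from -0.01 to 0.25 in TKO, -0.5 to 0.39 in morulae, -0.76 to 0.14 in blastocysts, -0.34 to 0.07 in pTKO heart, -0.14 to 0.14 in pTKO liver, -0.66 to 0.04 in pTKO lung and -0.43 to 0.03 in E18.5 heart against other tissues. For Tdg they ranged from -0.22 to 0.25 in blastocysts, -0.49 to 0.39 in pTKO lung, and -0.24 to 0.31 and -0.6 to 0.01 in E18.5 liver and lung against other tissues. Members called ranged from 0 to 1 in TKO and in blastocysts. Over the same fits, 574 to 6968 of all genes were called in TKO and 229 to 1520 in blastocysts. Since the calls of all genes moved as well, these member counts alone say little about the members. Some fits left 1 library in a group in STOP, the pTKO organs, P1 kidney and the E18.5 organs against other tissues. The same held for the differences across P1 and across pTKO tissues, so counts of calls are not given for these comparisons.

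Tdg was too low to test between pIR and pWT at the 2C stage, and groups hold 2 to 4 libraries. Where a group of 2 loses a library, the lone library is assumed to vary like the others, so those values say little about stability.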
